A study of Homo sapiens with 6 samples.

Results

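Transcripts of 10 genes of the methylation of histone H3 at lysine K9 (H3K9) were examined in Kasumi-1 cells that received shRNAs against JMJD1C. Their products place or read the mark or, in the case of TRIM28, bring an enzyme that places it. The 10 genes were taken by symbol, without use of their values, from tables that list 62016 genes, and comprise 6 methyltransferase genes (EHMT1, EHMT2, SUV39H1, SUV39H2, SETDB1 and SETDB2), 3 HP1 genes (CBX1, CBX3 and CBX5) and TRIM28. Kasumi-1 is a human line from an acute myeloblastic leukemia and expresses the fusion AML1-ETO. Every group was infected with pLKO-type virus made in 293T cells, which carried JMJD1C shRNA63, JMJD1C shRNA95 or, in the control group, a control shRNA, and RNA was taken on day 4. Each group held 2 libraries, 6 in all, and the labels do not say that they came from separate cultures, so the deposited p-values may measure technical spread. A further table compared an AML1-ETO shRNA with its own control, 1 library each from a different series. The JMJD1C measurements come from 1 cell line, and the sources used here do not give the sequences that the hairpins target.

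Methylated H3K9 marks silent chromatin. EHMT1 (GLP) and EHMT2 (G9a) form a dimer that places the mono- and dimethyl marks in euchromatin, SUV39H1 and SUV39H2 place the trimethyl mark in pericentric heterochromatin, and SETDB1 is brought to repeats and other sites by TRIM28 (KAP1), which binds KRAB zinc finger proteins. SETDB2 is a relative of SETDB1. The HP1 proteins, HP1beta (CBX1), HP1gamma (CBX3) and HP1alpha (CBX5), bind the methyl mark through their chromodomains. JMJD1C belongs to the KDM3 family, whose other members remove H3K9 methylation, which is the reason the opposing enzymes are of interest here.

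Levels are given as FPKM (fragments scaled to transcript length and to sequencing depth), 1 value per group, which the authors formed from the 2 libraries. No value per library was used, so no spread between libraries can be shown and overlap between groups cannot be judged. The error of a log2 fold change is its size divided by the authors' test statistic, and a gene was called where their q-value was under 0.05. The targeted gene served as a check of the labels: JMJD1C stood at 30.4 FPKM in the control and 13.7 with shRNA63, and was called lower (q = 0.00214 in the authors' deposited table). Its level in the libraries labelled shRNA95, called shRNA95 below, was 25.1 FPKM against 29.4 in the control, without a call (q = 0.938 in the authors' deposited table), so each direction given for that hairpin rests on the label alone. Of the line's markers, KIT, CD34, CD33 and RUNX1T1 had 245.2, 150.7, 19.8 and 102.5 FPKM in the control group, while MPO was listed at 0 with a status that marks it as too deep to be estimated. Among markers of other cell types EPCAM had 14.4 FPKM, and CD3E, HBB, PAX2 and COL1A1 had at most 0.470 FPKM in that control group. With shRNA63 KIT and the T-cell gene CD3E (0.122 against 0.470 FPKM) were called lower and CD33 higher, and CD34 was called higher with shRNA95. In the AML1-ETO comparison CD34 was called lower and S100A8 higher. RUNX1T1, the gene of the ETO part of the fusion, had a log2 fold change of -1.04 there (error 0.87) without a call. The knockdown in that comparison thus rests on the label. Of 9 myeloid maturation genes 4 of 6 tested were called higher with shRNA63 (CTSS, LYZ, MNDA and TLR2) and 5 of 7 with shRNA95 (these and S100A9), with summed levels of 232.9 against 109.3 FPKM and 605.3 against 105.9 FPKM. In bulk RNA of this kind fewer cells of a type and less RNA per cell cannot be told apart, and the part of maturation in the values below was not tested.

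None of the 10 genes was called with either hairpin or in the AML1-ETO comparison. By Cuffdiff's test in the authors' deposited tables, calls were made for 5.12% of tested genes with shRNA63, 4.4% with shRNA95 and 0.411% with the AML1-ETO shRNA. At an unadjusted p under 0.05 those tables listed 2 of the 10 with shRNA63 (SUV39H2 and SETDB2), against 13.4% of all tested genes, 2 with shRNA95 (CBX1 and SETDB2), against 12.3%, and 0 in the AML1-ETO comparison, against 6.67%. All 10 passed the authors' filter for testing in each of the 3 tables. The median log2 ratio of the 10 genes, computed from FPKM + 1, was 0.02 with shRNA63, where the median over all tested genes with at least 1 FPKM was 0.0087, and -0.15 with shRNA95, where it was 0.03. With shRNA95 9 of the 10 ratios were negative, against 46.0% of those genes, and with shRNA63 5 were negative, against 48.9% of them. In the AML1-ETO comparison 7 of the 10 log2 fold changes of the authors' deposited table were negative, against 50.9% of the 21727 tested genes whose log2 fold change is finite, with a median of -0.22 for the 10 and -0.01 for those genes.

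**Figure D1:**
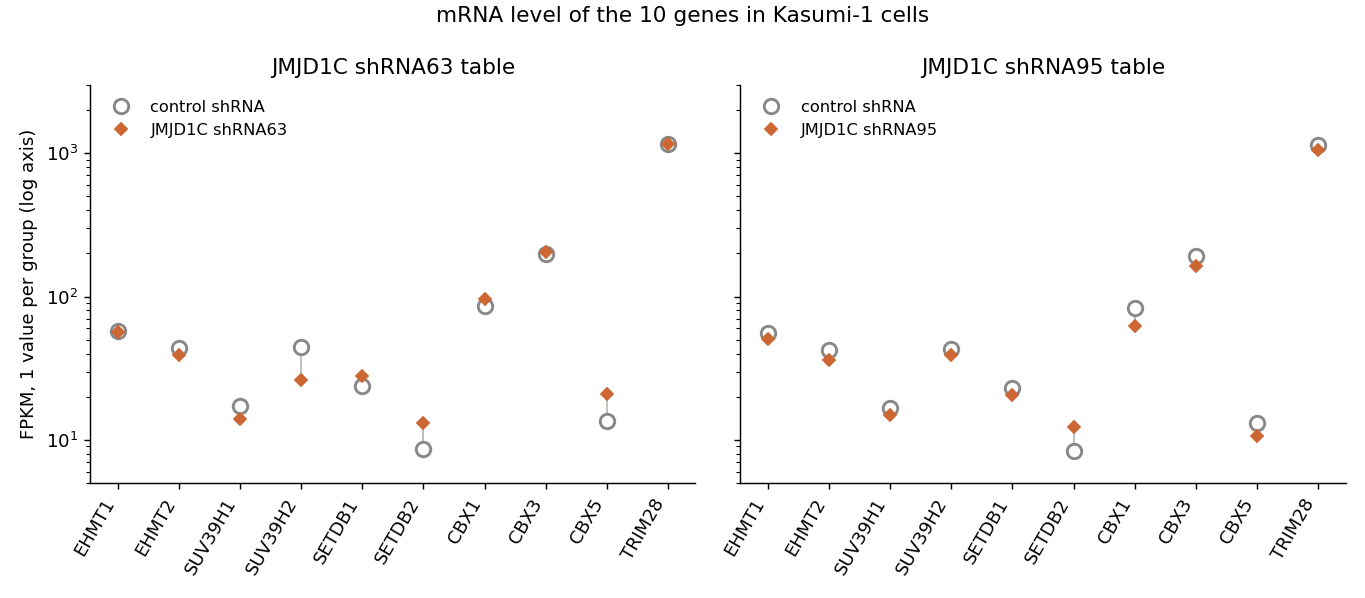
Each point is the authors' group value in FPKM on a log axis, open circles for the control shRNA and diamonds for the JMJD1C shRNA, with shRNA63 and its control on the left and shRNA95 and its control on the right. TRIM28 lies highest, near 1170 FPKM in the left control, SETDB2 lowest at 8.65, and the control and shRNA symbols stand furthest apart for SUV39H2, SETDB2 and CBX5 with shRNA63.

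The levels covered a wide range. In the control group of the shRNA63 table TRIM28 had 1170 FPKM, more than 99.1% of tested genes with at least 1 FPKM. CBX3 followed at 198.4 FPKM and CBX1 at 85.3 FPKM, and then EHMT1, SUV39H2 and EHMT2 at 57.3, 44.4 and 43.5 FPKM. SETDB1, SUV39H1, CBX5 and SETDB2 were lowest, at 23.8, 17.1, 13.5 and 8.65 FPKM, and SETDB2 exceeded 39.6% of tested genes. The group values carry no error of their own, so the order of close neighbours such as SUV39H2 and EHMT2 has no test.

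SUV39H2 had the smallest p-value among the 10 genes. It encodes an enzyme that trimethylates H3K9 and stood at 44.4 FPKM in the control and at 26.4 FPKM, 59.4% of control, with shRNA63. The authors' deposited table gave a log2 fold change of -0.75 (error 0.37, 95% interval -1.47 to -0.04) with p = 0.00345 and q = 0.0612, outside the call. With shRNA95 SUV39H2 stood at 39.1 against 43.0 FPKM (91.0% of control), and the authors' deposited table listed -0.14 (error 0.37). In the AML1-ETO comparison its log2 fold change was -0.67 (error 0.79) in the authors' deposited table. SUV39H1, its paralog, stood at 14.0 against 17.1 FPKM with shRNA63 and at 14.9 against 16.6 FPKM with shRNA95. The ratio of SUV39H2 to SUV39H1 in FPKM was 2.60 in the control and 1.88 with shRNA63, and 2.59 and 2.62 in the shRNA95 table. SUV39H2 (ENSG00000152455) shares its locus (chromosome 10, 14920819 to 14996431 in hg19) with DCLRE1C, which stood at 17.5 against 15.0 FPKM with shRNA63. SUV39H1 (ENSG00000101945) lies on chromosome X in a locus from 48553945 to 48595570.

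Proliferation genes had lower values beside SUV39H2 in the shRNA63 table. Of 14 such genes 13 had negative log2 ratios with shRNA63. The median of the list was -0.43, and its summed level was 2114 FPKM against 2774 in the control. The exception was MKI67, a marker of dividing cells, which stood at 31.6 against 27.5 FPKM without a call. TOP2A, which encodes DNA topoisomerase II alpha, was called lower, from 157.6 to 85.4 FPKM, and MCM6, a subunit of the replicative helicase, stood at 83.9 against 132.6 FPKM (q = 0.0907 in the authors' deposited table). With shRNA95 the median of the list was -0.03, the sum was 2650 against 2689 FPKM and no gene of it was called. In the AML1-ETO comparison 12 of the 14 log2 fold changes of the authors' deposited table were negative, with a median of -0.41 and no call. The part of proliferation in the SUV39H2 values was not tested.

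SETDB2 was the only gene of the 10 with a positive log2 fold change in all 3 tables, while EHMT1, EHMT2, SUV39H2 and TRIM28 were negative in all 3. The share of all tested genes with the same sign in all 3 tables was not computed, so these counts are descriptions. With shRNA63 TRIM28 (-0.0048, error 0.30) and EHMT1 (-0.02, error 0.47) lay so near 0 that their sign gives no direction. Among all these negative values only that of SUV39H2 with shRNA63 exceeded its error, so the other signs give little direction either. SETDB2 stood at 13.2 FPKM with shRNA63 against 8.65 in the control, or 152.6% of control, and at 12.4 against 8.38 FPKM with shRNA95, or 148.0%. The authors' deposited tables gave log2 fold changes of 0.61 (error 0.31, q = 0.210) with shRNA63, 0.57 (error 0.31, q = 0.309) with shRNA95 and 0.68 (error 0.65) in the AML1-ETO comparison. The JMJD1C comparisons use the same control libraries, so their values are not independent of each other. The locus of SETDB2 (ENSG00000136169, chromosome 13, 49882786 to 50069138 in hg19) holds 3 other genes. The highest of them, AL136218.1, stood at 8.45 against 5.24 FPKM with shRNA63 and at 9.92 against 5.07 FPKM with shRNA95. The sources used here do not say whether the libraries kept strand, so reads of overlapping genes cannot be told apart.

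For reference, the 250 bases before the start site are shown for SUV39H2 and SETDB2, the genes with the smallest p-values with shRNA63. They come from RefSeq on GRCh38.p14, on the plus strand, at chr10:14878616-14878865 and chr13:49444024-49444273, and capitals mark a match to a searched motif.
SUV39H2: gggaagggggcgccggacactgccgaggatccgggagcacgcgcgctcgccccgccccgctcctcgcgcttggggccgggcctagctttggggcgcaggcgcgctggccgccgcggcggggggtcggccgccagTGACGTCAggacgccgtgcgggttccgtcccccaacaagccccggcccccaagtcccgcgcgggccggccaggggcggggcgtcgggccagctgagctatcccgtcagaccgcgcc
SETDB2: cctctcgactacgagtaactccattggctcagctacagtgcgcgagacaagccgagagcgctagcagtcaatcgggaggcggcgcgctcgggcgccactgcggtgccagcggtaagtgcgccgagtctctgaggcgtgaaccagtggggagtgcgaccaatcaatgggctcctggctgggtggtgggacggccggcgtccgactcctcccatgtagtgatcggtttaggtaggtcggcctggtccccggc

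RefSeq promoters were at hand for EHMT1, EHMT2, SETDB1, SETDB2, SUV39H1, SUV39H2, CBX1, CBX3 and CBX5. On both strands of these windows 3 motifs were sought: the cyclic AMP response element TGACGTCA, the RUNX word TGTGGT and 4 words for E2F factors (TTTGGCGC or TTTCGCGC or TTTCCCGC or TTTGCCGC), none of which overlapped in the windows printed. The only match among the 9 genes was the response element of SUV39H2, which begins 116 bases before the start site. Over 35116 promoters of the same length 1.65% held that element, 11% the RUNX word and 2.79% an E2F word. The match is a description of letters and was not tested for binding.

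SETDB1 was less precisely measured. It stood at 28.0 against 23.8 FPKM with shRNA63 and at 20.6 against 23.1 FPKM with shRNA95, and the errors of its log2 fold changes were 1.08 and 1.14. SETDB1 (ENSG00000143379) lies on chromosome 1 (150898739 to 150948010 in hg19) in a locus shared with CERS2, a ceramide synthase gene with 342.9 FPKM in the control. TRIM28, the partner that brings SETDB1 to its sites, stood at 1166 against 1170 FPKM with shRNA63 and at 1054 against 1134 FPKM with shRNA95. Its log2 fold changes in the authors' deposited tables were -0.0048 (95% interval -0.59 to 0.58) and -0.11 (95% interval -0.73 to 0.52). TRIM28 (ENSG00000130726) is the only gene in its locus (chromosome 19, 59055458 to 59062089 in hg19).

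Neither gene of the EHMT dimer was called. EHMT1 stood at 56.3 against 57.3 FPKM with shRNA63 and at 50.4 against 55.5 FPKM with shRNA95. EHMT2 stood at 39.2 against 43.5 FPKM and at 35.9 against 42.2 FPKM. The FPKM ratio of EHMT1 to EHMT2 was 1.32 in the shared control group, 1.43 with shRNA63 and 1.40 with shRNA95. For EHMT2 the 95% interval of the log2 fold change in the authors' deposited tables ran from -0.74 to 0.44 with shRNA63 and from -0.83 to 0.37 with shRNA95. EHMT2 (ENSG00000204371, chromosome 6, 31847536 to 31865464 in hg19) overlaps its antisense gene EHMT2-AS1, which had 5.47 FPKM in the control. It was also listed on 6 alternate sequences, and SUV39H1 on 1, all at 0 FPKM. EHMT1 (ENSG00000181090) lies on chromosome 9 from 140513444 to 141019076, a locus whose 5 other genes had at most 0.061 FPKM in the control.

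The 6 methyltransferase genes summed to 177.1 FPKM with shRNA63 against 194.8 in the control, and to 173.4 against 188.8 with shRNA95. SUV39H2 made up 22.8% of the control sum and 14.9% of the shRNA63 sum, and SETDB2 4.44% and 7.45%. In the shRNA95 table the share of SUV39H2 was 22.8% in the control and 22.6% with the hairpin. These shares are descriptions without a test.

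**Figure D2:**
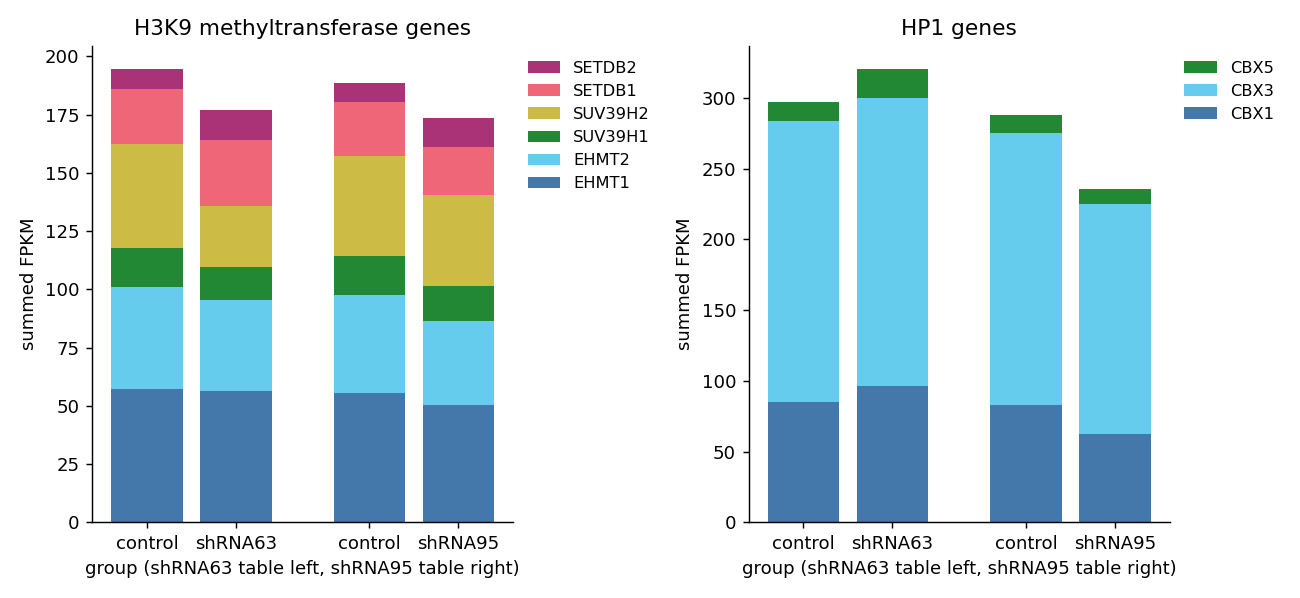
Stacked bars give the summed FPKM of the 6 methyltransferase genes on the left and the 3 HP1 genes on the right, in the control and shRNA groups of each JMJD1C table, with 1 colour per gene. The SUV39H2 band is 44.4 FPKM in the first control bar and 26.4 in the shRNA63 bar, and CBX3 makes up most of each HP1 bar.

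Among the HP1 genes CBX3 was the most abundant, with 66.8% of the summed FPKM in the control, CBX1 had 28.7% and CBX5 4.54%. CBX1 stood at 96.5 against 85.3 FPKM with shRNA63, or 113.0% of control, and at 62.3 against 82.7 FPKM with shRNA95, or 75.4%. The authors' deposited tables gave CBX1 log2 fold changes of 0.18 (error 0.30, q = 0.938) and -0.41 (error 0.30, p = 0.0498, q = 0.407). CBX3 stood at 203.5 against 198.4 FPKM with shRNA63 and at 162.6 against 192.3 FPKM with shRNA95. CBX5 stood at 20.8 against 13.5 FPKM and at 10.6 against 13.1 FPKM. The sum of the 3 genes was 320.7 against 297.3 FPKM with shRNA63 and 235.6 against 288.0 FPKM with shRNA95. The values of all 3 were above control in the first and below it in the second table, with no call in either. Only the log2 fold change of CBX1 with shRNA95 exceeded its error. That of CBX3 with shRNA63 (0.04, error 0.74) lay so near 0 that its sign gives no direction.

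The CBX5 and CBX3 values have wide errors. For CBX5 the 95% interval of the log2 fold change in the authors' deposited tables ran from -1.84 to 3.09 with shRNA63 and from -3.15 to 2.55 with shRNA95. CBX5 (ENSG00000094916) lies on chromosome 12 (54624724 to 54745633 in hg19) with 10 other genes in its locus, among them HNRNPA1 with 1501 FPKM in the control. CBX3 (ENSG00000122565), on chromosome 7 from 26229547 to 26252976, shares its locus with HNRNPA2B1, which had 1284 FPKM. CBX1 (ENSG00000108468), on chromosome 17 from 46147414 to 46178883, shares its locus with a U6 gene listed at 0 and had an error of 0.30 in both JMJD1C tables. The part of these neighbours in the errors was not tested.

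The HP1 genes also have processed copies whose reads may be confused with theirs, so their values are uncertain to that extent. Of 15 such pseudogenes listed, 14 stayed under 1 FPKM in every group of the JMJD1C tables, with 0.889 FPKM as the highest value. The other was CBX3P2, named after its values were seen. This pseudogene on chromosome 18 (2652169 to 2655394 in hg19) stood at 24.3 against 9.42 FPKM with shRNA63 and at 0.454 against 9.14 FPKM with shRNA95. Neither difference was called, and the errors of its log2 fold changes were 3.63 and 3.46 (q = 0.999 and q = 0.830 in the authors' deposited tables). CBX3P2 lay on the same side of the control as CBX3 with each hairpin, but on the other side in the AML1-ETO comparison, where the authors' deposited table gave 0.41 for CBX3P2 and -0.28 for CBX3. The copy with the highest level under 1 FPKM, CBX3P4, stood at 0.385 against 0.889 FPKM with shRNA63, below control where CBX3 was above it, and was not called. The errors of CBX3 were 0.74 with shRNA63, 0.82 with shRNA95 and 1.11 in the AML1-ETO comparison. Each exceeded the log2 fold change of CBX3, so the side on which CBX3 lay gives no direction and these comparisons of sides are descriptions.

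The width of the intervals set what could be seen. With shRNA63 the 95% intervals of EHMT1, EHMT2, CBX1 and TRIM28 lay within a doubling and a halving, 4 of 10, and with shRNA95 those of EHMT2, SUV39H1, SUV39H2, CBX1 and TRIM28, 5 of 10. In the AML1-ETO comparison 0 of 10 did, and the median error of the 10 genes was 0.75, against 0.38 with each JMJD1C hairpin. For the other genes the intervals also covered a change of that size. With the errors that the deposited p-values imply, 5 of 10 intervals with shRNA63, 6 with shRNA95 and 0 in the AML1-ETO comparison lay within those bounds.

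**Figure D3:**
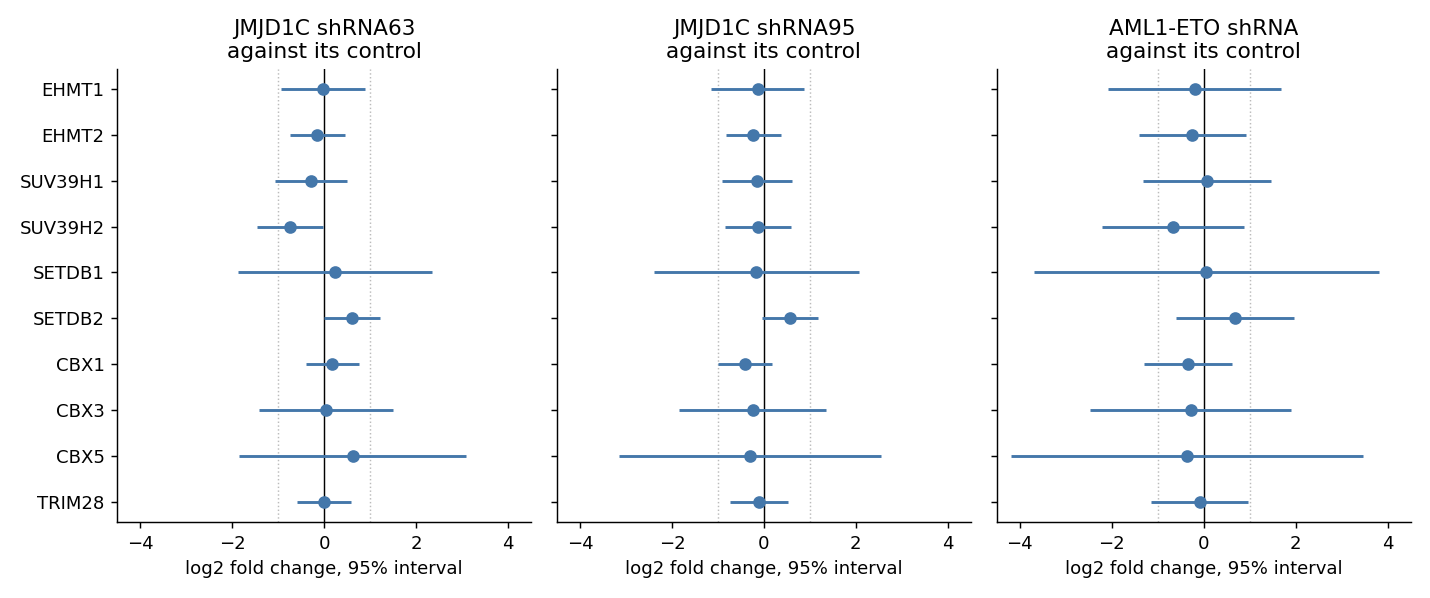
Points are log2 fold changes from the authors' deposited tables for the 10 genes, bars are 95% intervals from the error of each, and dotted lines mark a halving and a doubling. Bars are widest for CBX5 and SETDB1, and in the JMJD1C panels all bars cross 0 except those of SUV39H2 and SETDB2 with shRNA63. With the errors that the deposited p-values imply, not drawn, the intervals of SETDB2 (0.05 to 1.08) and CBX1 (-0.81 to -0.0004) with shRNA95 also leave out 0.

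None of the 10 genes passed a test of the difference between hairpins. The difference of the log2 fold changes was tested over 17267 genes, of which 0.84% passed at an adjusted p under 0.05 and 4.81% at an unadjusted p under 0.05, and 0 of the 10 passed either. The difference, shRNA63 minus shRNA95, was 0.58 for CBX1 (standard error 0.42, interval -0.24 to 1.41) and -0.62 for SUV39H2 (standard error 0.52, interval -1.63 to 0.40). For SETDB2 it was 0.04 (interval -0.81 to 0.90). Of the 10 differences 8 were positive, and of these only that of CBX1 exceeded its standard error. The share of positive differences over all genes was not computed. The test treats the errors as independent although the control libraries are shared, which makes its intervals too wide.

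Of 33 partners and further readers of H3K9 methylation 3 were called lower with shRNA63, where 2.83% of all tested genes were called lower, and 0 were called higher. The list covers the HUSH complex, partners of EHMT2, SETDB1 and HP1, the CAF-1 chaperone, the H4K20 methyltransferases and the E2F6 complex. UHRF1, which reads H3K9 methylation and guides DNA methylation to replicated DNA, fell from 41.7 to 23.2 FPKM with shRNA63, and the authors' deposited table listed a log2 fold change of -0.84 (error 0.25, q = 0.00214). SIRT1, a deacetylase that acts on SUV39H1, fell from 25.9 to 15.8 FPKM, and LRWD1, a heterochromatin protein that binds the origin recognition complex, from 29.5 to 16.8 FPKM. Their log2 fold changes in the authors' deposited table were -0.72 (error 0.28, q = 0.0135) and -0.81 (error 0.34, q = 0.0400).

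By Cuffdiff 6 of the 33 partners had an unadjusted p under 0.05 with shRNA63, against 13.4% of all tested genes. With shRNA95 no partner was called, against 4.4% of all tested genes, and 0 of 33 had an unadjusted p under 0.05, against 12.3%. UHRF1 stood at 34.4 against 40.5 FPKM, SIRT1 at 18.8 against 25.1 FPKM and LRWD1 at 28.6 in both groups. The differences between hairpins were -0.61 for UHRF1 (interval -1.33 to 0.11), -0.30 for SIRT1 (interval -1.08 to 0.48) and -0.81 for LRWD1 (interval -1.74 to 0.13), and none passed. The list median was -0.09 with shRNA63 and -0.13 with shRNA95, with 23 and 25 of 33 ratios negative. In the AML1-ETO comparison 0 of 32 tested partners were called, against 0.411% of all tested genes, and 2 had an unadjusted p under 0.05, against 6.67%, a share near the background. The authors' deposited table gave these partners a median of -0.38 on the log2 scale. The lower proliferation values with shRNA63 and in the AML1-ETO comparison given above stand beside these partner values too, and their part in them was not tested.

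**Figure D4:**
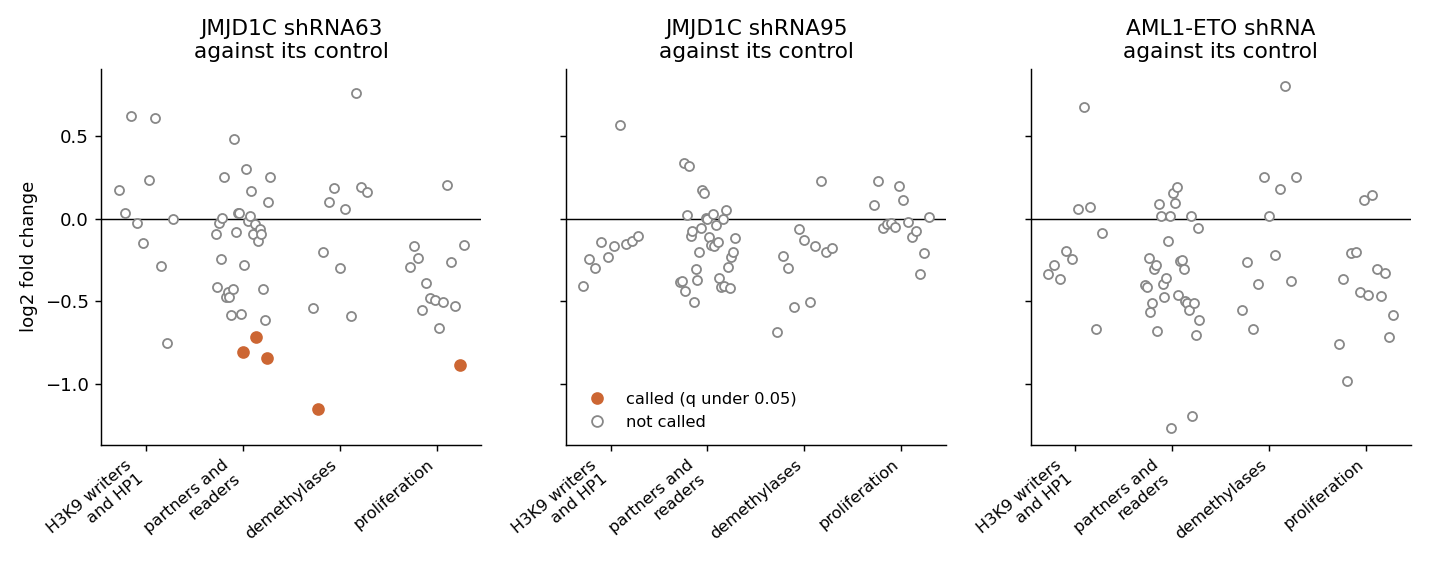
Each circle is the log2 fold change of 1 tested gene in the authors' deposited tables, for the 10 H3K9 methyltransferase, HP1 and TRIM28 genes, 33 partners and readers (32 in the AML1-ETO panel), 11 demethylases and 14 proliferation genes, with called genes filled. The filled circles, all in the shRNA63 panel, are UHRF1, SIRT1 and LRWD1 among partners, JMJD1C among demethylases and TOP2A among proliferation genes.

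Of 11 H3K9 demethylase genes JMJD1C itself was the only one called, with shRNA63. Of the 10 with at least 1 FPKM, JMJD1C included, 10 had negative log2 ratios with shRNA95 (median -0.20) and 5 with shRNA63 (median -0.07). The negative lean with shRNA95 was thus not particular to the methyltransferase and HP1 genes. JHDM1D (KDM7A), which had the largest ratio after JMJD1C with shRNA63 among those with at least 5 FPKM, stood at 5.60 against 8.14 FPKM with shRNA63 and at 4.91 against 7.89 FPKM with shRNA95, without a call (q = 0.440 and q = 0.198 in the authors' deposited tables).

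Of 15 germline genes that H3K9 methylation or E2F6 is known to silence in somatic cells, 12 were under 1 FPKM in every group of the JMJD1C tables, and 5 of these were listed at 0 throughout. The 3 others, named after their values were seen, had at least 1 FPKM in the control. SYCP3, of the synaptonemal complex, stood at 45.3 against 36.1 FPKM with shRNA63 and at 54.0 against 34.9 FPKM with shRNA95. SYCE2, of the same complex, stood at 43.8 against 41.6 FPKM and at 51.6 against 40.3 FPKM, levels near that of EHMT2. STAG3, a meiotic cohesin subunit, stood at 1.95 against 1.75 FPKM and at 1.56 against 1.70 FPKM. None of the 4 genes tested with each hairpin was called, and 0 of them had an unadjusted p under 0.05 by Cuffdiff.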

How the data were processed

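RNA sequencing tables of Kasumi-1 cells were used as deposited. The submitters' processing notes name TopHat2 2.0.8b, Cuffdiff 2.1.1 and hg19, without role or order. Per the file headers each of 3 tables is a Cuffdiff gene comparison. The 2 JMJD1C tables give 1 FPKM per group, into which the authors combined 2 libraries and which they scaled within the table, so levels were compared within a table only. The deposited log2 fold changes, test statistic (a score), p-values and q-values were used unchanged. The AML1-ETO table also has 2 FPKM columns, which come from a different series and were left out. Depth per library is unknown.

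Genes were matched by symbol on reference chromosomes, with the lowest Ensembl ID where a symbol had several. Calls were q under 0.05 among genes with an OK status. Log2 ratios used a pseudocount of 1 and at least 1 FPKM in the higher group. Intervals are 95% from the error (log2 fold change over statistic). At the median that error was 1.42 times the one the deposited p implies in the JMJD1C tables and 1.04 times in the other. The hairpin difference used a two-sided normal test with errors raised to their 10th percentile and Benjamini-Hochberg adjustment. A run on simulated data drew independent noise from these same errors. That run could check neither the errors nor the effect of the shared control. All 10 genes were named. Of partners, demethylases and proliferation genes, those called and the 2 with the largest ratios at 5 FPKM or more were named, and of the other lists those called, except that the levels of cell markers are given for the check of the line (some are not reported here) and that the 3 germline genes with at least 1 FPKM and the pseudogenes CBX3P2 and CBX3P4 were chosen for naming once their values had been seen. The genes and lists were chosen with earlier results of these data known. Locus starts were raised by 1 to count from 1. Python 3.11.15, pandas 2.3.3 and scipy 1.17.1 were used.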

Additional observations from a re-analysis of the deposited data

How the results depend on the processing

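No paired analysis was possible because the tables hold group values without libraries, and for the same reason no library could be left out. At q under 0.10 the count of called genes among the 10 with shRNA63 was 1 (SUV39H2) in place of 0. At an unadjusted p under 0.05, a setting added after the data had been seen, it was 2 with shRNA63 and 2 with shRNA95 in place of 0. At q under 0.01 the partners called with shRNA63 numbered 1 (UHRF1) in place of 3. Adjusted over genes with at least 1 FPKM, SUV39H2 had 0.0552 and was still not called. The other 30 alternatives, for the called counts, the medians of the 10 genes and the count of hairpin differences, left counts within 1.5 times and medians within the error of a fold change. Subtracting the median of all tested genes changed the sign of 0 of 30 log2 fold changes. The unknown depth and the wide errors of CBX5, SETDB1 and CBX3 limit what could be detected.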
